A study of Mus musculus with 8 samples.

Results

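The long non-coding RNAs Neat1, Malat1 and AI504432 were followed in peritoneal macrophages that lacked the proprotein convertase FURIN or carried it, before and after stimulation with LPS. They are 3 of 20895 genes named on the array, and they were measured by 12 of its 55681 distinct gene probes: 6 for Neat1, 4 for Malat1 and 2 for AI504432. Of the Neat1 probes, 5 carry the name itself and 1 its RefSeq accession. Of the Malat1 probes, 1 carries the RefSeq accession and 3 the older name NEAT2, a synonym of Malat1 in the reference table. Both AI504432 probes carry its RefSeq accession. All 12 probes passed the filter on dim probes. Each was well above background, and none was flagged as saturated, in all 16 channels. Each Neat1 probe had its highest median signal in unstimulated cells that carried FURIN, on replicate 2, from 37371 to 65349. Whether signals this high were compressed was not tested.

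The KO macrophages came from LysMCre-fur(fl/fl) mice, in which Cre recombinase expressed from the lysozyme M locus deletes floxed fur alleles in myeloid cells, and the WT macrophages came from littermates, all on a C57BL/6 background. Adherent cells of the peritoneal cavity were collected without stimulation or after 1, 4 or 24 h with LPS (1 μg/ml). On each of the 8 arrays, KO RNA was hybridized together with WT RNA of its own time point, with KO in Cy5 on replicate 1 and in Cy3 on replicate 2, so that replicate number and dye orientation are the same factor. There were 2 arrays at each time point, described as biological replicates, and neither the age of the mice nor whether animals were pooled is given in the sources used here.

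Neat1 is the architectural RNA around which paraspeckles, nuclear bodies that hold RNA-binding proteins of the DBHS family, are assembled. Malat1 is an abundant nuclear RNA that is found in nuclear speckles, the sites rich in splicing factors, and its 3′ end is made by cleavage of a tRNA-like structure. Neat1 and Malat1 lie close together on chromosome 19. AI504432 is annotated as a long non-coding RNA on chromosome 3, next to Kcna3, and its function was not considered here. Neat1 and Malat1 were chosen by their lower KO/WT ratio in unstimulated macrophages, and the measure by which AI504432 was selected is not recorded. KO/WT ratios of unstimulated cells, and all KO/WT ratios of AI504432, are therefore given as descriptions, as are the changes of all 3 genes from unstimulated cells and that of AI504432 from 4 h to 24 h. The fits across all probes include them, and nothing is read from their calls.

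The labels were checked on Furin and Lyz2. The log2 KO/WT ratio of Furin was between -0.85 and -0.55 on the 6 arrays of unstimulated cells and of 1 h and 24 h of LPS, but 0.0012 and 0.33 on the arrays of 4 h, and the RNA of that time point is therefore called the RNA labelled KO. Lyz2, the lysozyme gene whose locus drives Cre, had ratios between -1.85 and -0.75 on all 8 arrays. All 7 measured macrophage markers of 8 listed were well above background in every channel. Markers of other cells were also above background in every channel: 5 of 5 for B cells, 5 of 5 for mast cells, 4 of 5 for T and NK cells, 2 of 6 for mesothelial cells and fibroblasts and 2 of 4 for steroid-producing cells, whereas of the neutrophil markers S100a8 was in all 16 channels, Ltf in 1, and S100a9 and Ngp in none. With bulk RNA, fewer cells of a type and less of an RNA per cell cannot be told apart.

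Before any ratio is considered, the levels themselves are given, as normalized log2 intensity averaged over the probes of a gene. A unit of 1 on this scale is a doubling, and the levels of different genes cannot be set against each other on an array. In WT macrophages Neat1 was at 15.97 and 15.20 on the unstimulated arrays (replicates 1 and 2), at 14.24 and 14.01 after 1 h of LPS, at 12.53 and 12.38 after 4 h, and at 13.80 and 13.46 after 24 h. In KO macrophages it was at 14.20 and 14.88 without LPS, at 13.08 and 13.78 after 1 h and at 13.41 and 13.64 after 24 h, and in the RNA labelled KO of 4 h at 11.76 and 11.85. Neat1 thus stood highest in unstimulated cells and lowest at 4 h, in WT cells and in the RNA labelled KO, and at 24 h the WT and KO values overlapped. In the order of the 8 conditions, 4 of 7 neighbouring pairs had replicate ranges that did not overlap. Over all probes ordered in this way 19.9% of neighbouring pairs did not overlap. The pair of unstimulated WT above unstimulated KO was fixed by the choice of the gene, and WT at 4 h stood above the RNA labelled KO.

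Malat1 moved over a narrower range. Its WT levels were 9.59 and 9.52 without LPS, 8.75 and 9.17 at 1 h, 8.54 and 8.33 after 4 h, and 9.76 and 9.64 at 24 h. In the RNA labelled KO they were 8.97 and 9.15, 8.59 and 9.18, 8.19 and 8.43, and 9.65 and 9.90. The 24 h samples of both genotypes stood at the top of the order, with overlapping ranges, and those of 4 h at the bottom, again overlapping. The ranges of 3 of its 7 neighbouring pairs did not overlap, against the same 19.9% over all probes.

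AI504432 ran the other way. Its WT levels were 7.15 and 7.48 without LPS, 9.67 and 9.23 at 1 h, 10.02 and 9.40 after 4 h, and 9.23 and 8.76 at 24 h. In the RNA labelled KO they were 7.70 and 7.63, 9.58 and 9.39, 9.43 and 9.56, and 7.17 and 7.66. The conditions fell into a higher and a lower set, divided by 1.06 between the ranges of WT at 24 h and of unstimulated KO cells. This was the single pair of 7 neighbours whose ranges did not overlap. Over all probes 19.9% of pairs did not overlap, with a median of 1 pair of 7 per probe, so the count itself is an ordinary one. KO macrophages at 24 h lay in the lower set with the unstimulated cells of both genotypes, and WT macrophages at 24 h in the higher one.

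**Figure D1:**
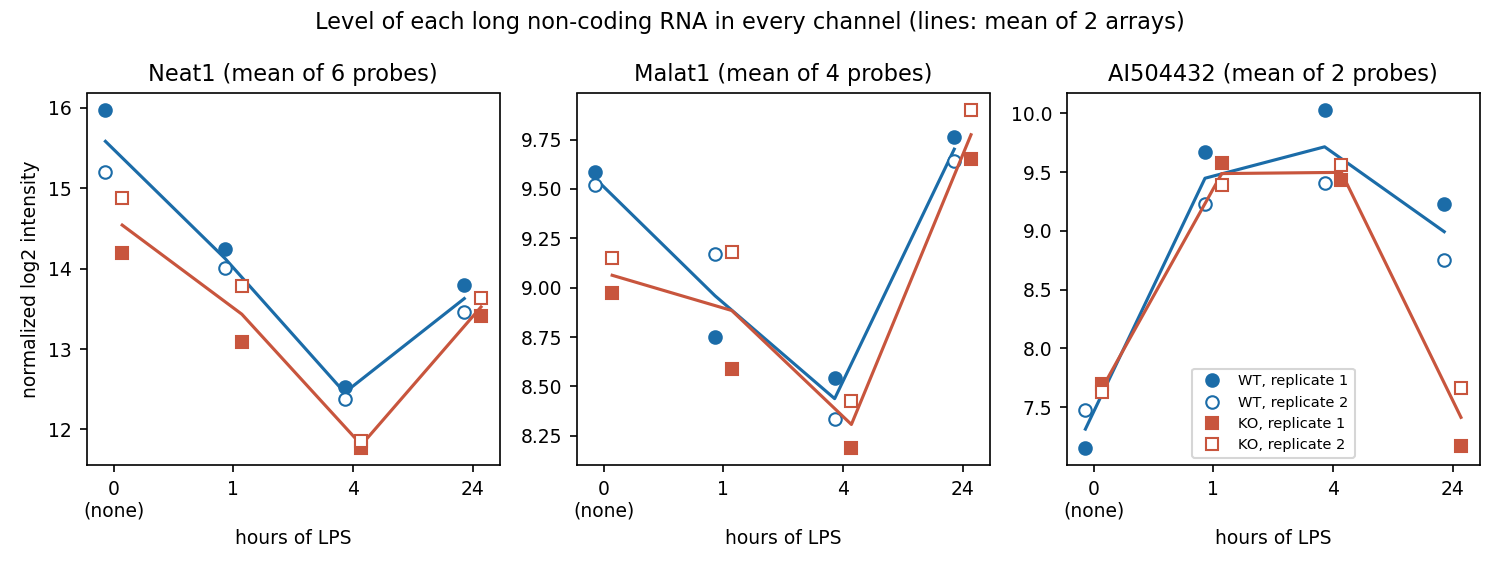
Normalized log2 intensity (vertical axis, a separate scale in each panel) of Neat1, Malat1 and AI504432, averaged over 6, 4 and 2 probes, against hours of LPS (spaced evenly, not to scale). Points are single channels, filled for replicate 1 and open for replicate 2, and lines join the means of 2 arrays: Neat1 and Malat1 are lowest at 4 h, in WT cells and in the RNA labelled KO, and AI504432 of KO cells at 24 h lies between 7.17 and 7.66, below both WT values.

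The change with LPS within a genotype was taken from a separate-channel fit of limma, with the Benjamini-Hochberg adjustment made over 55502 probes, and a probe is called where its adjusted p is under 0.05. The unstimulated channels entered the ratio by which Neat1 and Malat1 were chosen. That choice favours a high unstimulated WT level and a low unstimulated KO level, and the unstimulated channels may also have entered the choice of AI504432, so that the changes from unstimulated cells are given without a test. In WT macrophages the median change of Neat1 over 6 probes, on the log2 scale, was -1.46 after 1 h of LPS, -3.13 after 4 h and -1.95 after 24 h. The difference at 4 h amounts to an 8.75-fold lower signal. The medians were -1.12 at 1 h in KO macrophages, -2.76 at 4 h in the RNA labelled KO and -1.01 at 24 h in KO macrophages. With loess normalization within arrays and none between them the last of these was -0.58, and without replicate 2 of the unstimulated arrays it was -0.65.

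For Malat1 the median over 4 probes at 4 h was -1.10 in WT cells and -0.74 in the RNA labelled KO. At 1 h it was -0.62 in WT and -0.23 in KO, and at 24 h it was 0.15 in WT and 0.69 in KO. Single arrays moved the smaller of these: the KO value at 1 h was 0.04 without replicate 1 of that time, -0.49 without its replicate 2 and -0.14 without replicate 2 of the unstimulated arrays, and the WT value at 1 h was -0.39 without replicate 1 of that time. The WT value at 24 h was 0.06 and 0.24 without replicate 1 or 2 of that time, and 0.09 without replicate 2 of the unstimulated arrays. By these 4 probes Malat1 was thus below its unstimulated level at 4 h and not at 24 h. Brighter probes for chr19:5801802-5802597, named by position and not assigned to a gene, changed by -1.22 to -0.76 at 24 h in WT cells.

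AI504432 stood above its unstimulated level within the first hour. Its median change over 2 probes in WT cells was 2.13 at 1 h, 2.40 after 4 h and 1.68 after 24 h. In KO cells the median was 1.83 at 1 h and -0.25 at 24 h, and in the RNA labelled KO of 4 h it was 1.84. With single arrays left out, the values of its probes in KO cells at 24 h lay between -0.73 and 0.04.

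**Figure D2:**
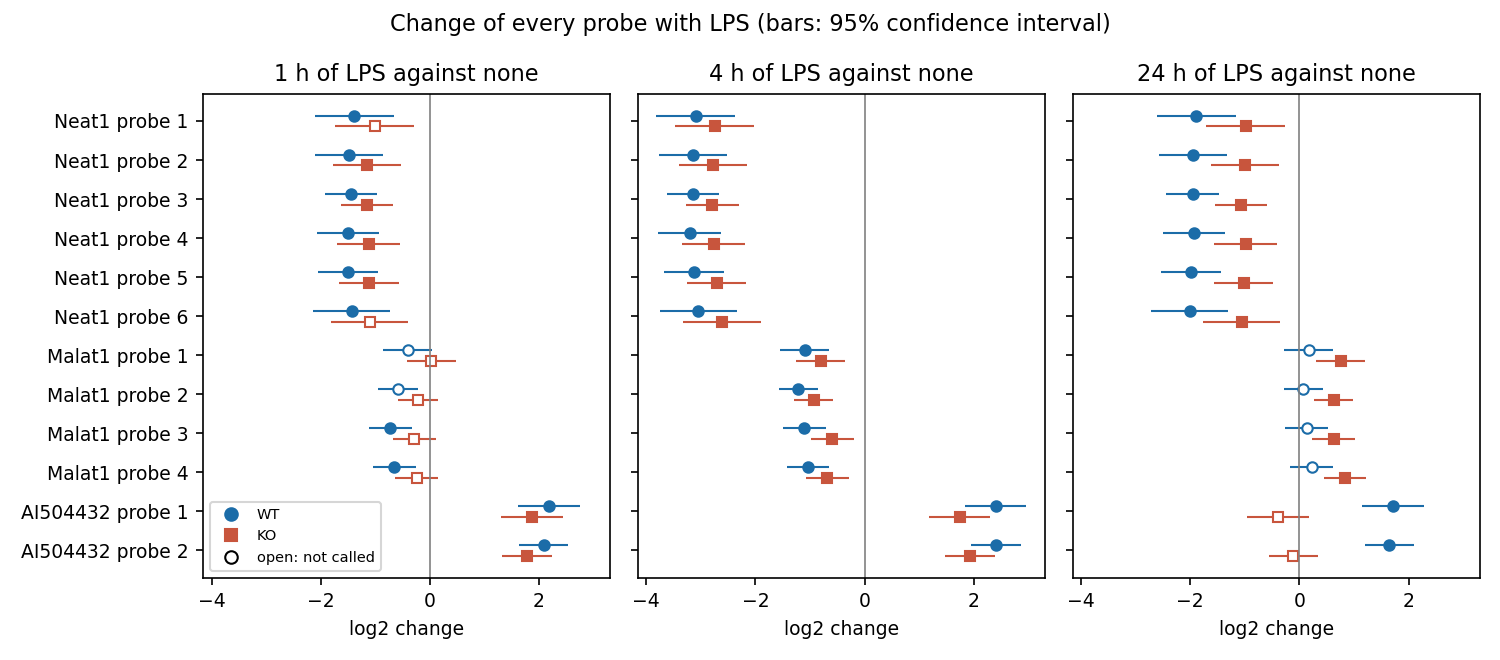
Log2 change with LPS (horizontal axis) of each of the 12 probes, numbered by brightness within a gene, at 1, 4 and 24 h against unstimulated cells of the same genotype. Bars are 95% confidence intervals from the separate-channel fit and filled symbols are called probes: all Neat1 and Malat1 probes lie below 0 at 4 h and all AI504432 probes above 0 at 1 h and 4 h, and nothing is read from the calls.

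LPS changed many probes. Over all probes tested, the share called in WT cells was 7.08% at 1 h, 30.3% after 4 h and 25.9% at 24 h. It was 6.02% at 1 h and 24.4% at 24 h in KO cells, and 31.3% at 4 h in the RNA labelled KO. All 12 probes are bright, and among probes well above background in at least 2 channels, fitted alone, the shares were larger: 13.7%, 55.7% and 48.2% in WT and 11.8%, 57% and 45.6% in the RNA labelled KO. Probes of a gene share its RNA and are not independent of each other: over the 16 channels their levels had a Pearson's r between 0.992 and 0.999 for Neat1, between 0.948 and 0.986 for Malat1, and of 0.989 for AI504432.

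The later times were set against the earlier ones in contrasts that use no unstimulated array. These were tested for Neat1 and Malat1, and for AI504432 from 1 h to 4 h only. From 1 h to 4 h Neat1 fell, with medians of -1.68 in WT and -1.63 in the RNA labelled KO (6 of 6 probes called in each, adjusted p at most 0.00261). Without replicate 2 of the 1 h arrays 5 of the 6 probes were called in the RNA labelled KO. Malat1 had medians of -0.50 and -0.59, with 2 of 4 probes called in each. With single arrays left out, the values of Malat1 probes lay between -0.92 and -0.07 in WT and between -1.19 and -0.03 in the RNA labelled KO. None of its WT probes was called without replicate 2 of the 1 h or of the 4 h arrays. In the RNA labelled KO none was called without replicate 2 of the 1 h arrays, and 1 was without replicate 1 of the 4 h arrays. AI504432 had medians of 0.27 and 0.01, with 0 of 2 called in either. The shares of all probes called were 25.6% in WT and 27.3% in the RNA labelled KO, or 47.4% and 50.5% among probes above background.

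From 4 h to 24 h the median change of all 3 RNAs had the opposite sign to their change at 4 h. Neat1 rose by a median of 1.19 in WT (6 of 6 called, adjusted p from 0.000945 to 0.0312). Its WT calls depended on single arrays: 2 of 6 probes were called without replicate 1 of the 24 h arrays, 3 without replicate 2 of the 4 h arrays, and 5 where either of the other arrays of these times was left out. From the RNA labelled KO of 4 h to KO cells of 24 h Neat1 rose by 1.74 (adjusted p from 3.35e-05 to 0.00222), and all 6 probes were called with each array left out in turn. Malat1 rose by 1.27 in WT and by 1.54 from the RNA labelled KO, with 4 of 4 probes called in each (adjusted p at most 0.000295). The median change of AI504432, which uses its 24 h values and was not tested, was -0.72 in WT and -2.08 from the RNA labelled KO. With single arrays left out, its probes lay between -1.10 and -0.39 in WT and between -2.47 and -1.78 from the RNA labelled KO. Of all probes, 25% were called in WT and 26% from the RNA labelled KO, and of those above background 46.8% and 48.4%.

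Markers of cell types also changed over these times. From 1 h to 4 h, 4 of 7 macrophage markers fell and 0 rose in WT (median of -0.69). In the RNA labelled KO 4 fell and 1 rose (median of -0.64). Of 5 B cell markers 2 fell and 1 rose in WT, and 3 fell and 0 rose in the RNA labelled KO. From 4 h to 24 h all 5 mast cell markers fell, with a median of -1.95 in WT and of -1.82 from the RNA labelled KO. Over the same interval 4 of 7 macrophage markers fell and 2 rose (medians of -0.73 in both), and 2 of 5 T and NK cell markers fell in WT and 1 from the RNA labelled KO. Of 5 B cell markers 2 rose and 1 fell in both, and of 4 neutrophil markers 1 rose in both. Of 4 steroid-producing markers 1 fell in WT and 2 from the RNA labelled KO. Of 6 mesothelial and fibroblast markers 1 rose and 1 fell in WT, and 2 rose from the RNA labelled KO. The summed log2 level of the mast cell markers was between 12.87 and 14.28 in the channels up to 4 h and between 10.68 and 11.77 at 24 h, and that of the macrophage markers between 18.46 and 19.45 and between 17.29 and 18.04. The part of these cells in the changes of the 3 RNAs was not tested.

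KO and WT were then compared on the same array. In unstimulated macrophages the log2 KO/WT ratio of Neat1 was -1.77 on replicate 1 and -0.32 on replicate 2, with a mean of -1.04 over its probes. That of Malat1 was -0.61 and -0.37, with a mean of -0.49. Both were below 0 on both arrays, as the choice of these genes fixed, and the Neat1 ratios differed more between the arrays than the Malat1 ratios did. AI504432 had 0.55 and 0.15, with a mean of 0.35.

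After LPS the ratios of Neat1 were -1.16 and -0.23 at 1 h, -0.77 and -0.53 after 4 h, and -0.39 and 0.18 at 24 h. At 1 h and in the RNA labelled KO at 4 h both arrays were below 0, and at 24 h they were on either side of it. Those of Malat1 were -0.16 and 0.01 at 1 h, -0.36 and 0.10 after 4 h, and -0.11 and 0.26 at 24 h, so that the arrays were on either side of 0 at each LPS time. In AI504432 they were -0.09 and 0.17 at 1 h, and -0.59 and 0.16 at 4 h. At 24 h its ratio was -2.06 and -1.10, which is a mean 2.99-fold lower signal in KO cells.

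Fitted with limma across all 55541 probes, 0 of the 12 probes were called between KO and WT at 1 h, at 4 h, at 24 h or in the mean of the 3 LPS times. The share of all probes called was 0.0018% at 1 h, 0.009% at 4 h, 0.018% at 24 h and 0.0846% for the mean. At an unadjusted p of 0.05, 2 of the 6 Neat1 probes passed at 1 h, 2 at 4 h, 0 at 24 h and 6 for the mean, and no Malat1 probe passed in any of these. Of all probes, 4.91%, 4.17%, 3.2% and 6.73% passed. The gap between replicates in the KO/WT ratio correlated across probes between time points (r from 0.444 to 0.642). The LPS ratios of Neat1 and Malat1 therefore cannot be taken as independent of the choice of these genes. For Neat1 the mean over LPS times lay between -0.54 and -0.44 (adjusted p from 0.440 to 0.669). With the replicate number as a block, the adjusted p of these 6 probes was between 0.0101 and 0.0195 and all were called for the mean, although none was called at 1 h (0.0667 to 0.0851), at 4 h (0.0766 to 0.152) or at 24 h. The block raised the share called over all probes to 2.27% for the mean and to between 0.535% and 0.54% at the single times, and it cannot be told apart from the dye orientation. It takes out the gap between the replicates, so its p-values measure the spread left between time points and not that between the 2 replicates. It called no Malat1 probe. The methods' t-test of 2 KO against 2 WT channels called 0 of 12 probes after adjustment at each LPS time, and unadjusted it passed 5 of the 6 Neat1 probes at 4 h, where 3.04% of all probes passed, and none of Neat1 at 1 h or 24 h.

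**Figure D3:**
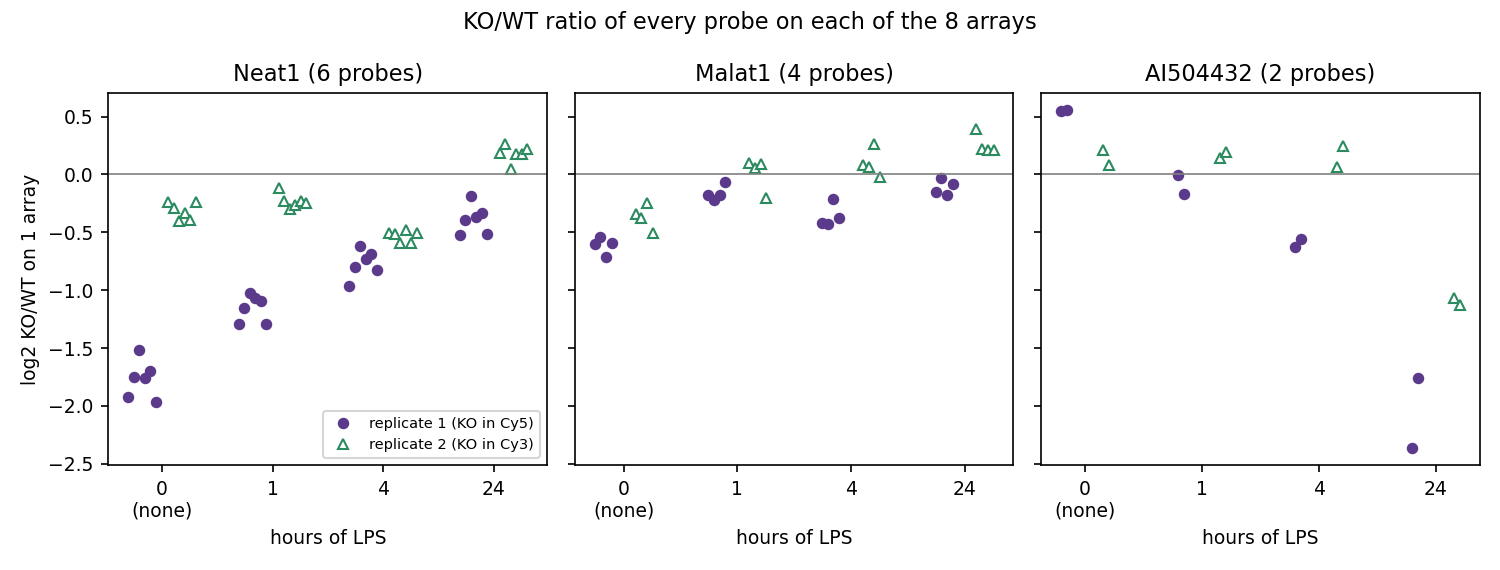
Log2 KO/WT ratio (vertical axis) of every probe on each array, against hours of LPS (spaced evenly, not to scale). Circles are replicate 1 and triangles replicate 2: for Neat1 the 6 circles lie below the 6 triangles at every time, and for AI504432 all points at 24 h lie below 0.

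The gap between the replicates had the same sign throughout for Neat1. Its ratio was lower on replicate 1 than on replicate 2 in 24 of 24 combinations of probe and time, as it was in 15 of 16 for Malat1 and in 6 of 8 for AI504432. The median log2 KO/WT ratio of 4 markers of steroid-producing cells (Star, Cyp11a1, Hsd3b1 and Cyp17a1) was also lower on replicate 1, between -1.13 and -1.01, than on replicate 2, between 0.23 and 0.95. Single markers ranged from -4.45 to 0.43 on replicate 1 and from -0.77 to 2.96 on replicate 2. The median over 5 mast cell markers was between -0.08 and 0.11 on replicate 1 and between 0.57 and 0.95 on replicate 2. The median over 5 T and NK cell markers went the opposite way, between 0.38 and 0.77 on replicate 1 and between -0.38 and 0.17 on replicate 2. The summed level of the steroid-producing markers was between 10.9 and 12.8 in WT channels and between 11.2 and 12.2 in KO channels, on the log2 scale. The part of any of these cells, and of the dyes, in the Neat1 ratio was not tested.

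Subtracting the unstimulated ratio from the ratio after LPS gives the difference in response between the genotypes, which holds the ratio that chose Neat1 and Malat1 and is given as values only. For Neat1 it was 1.38 on replicate 1 and 0.49 on replicate 2 at 24 h, but 1.00 and -0.22 at 4 h. For Malat1 it was positive on both arrays at each time, with 0.45 and 0.38 at 1 h, 0.25 and 0.46 after 4 h, and 0.50 and 0.62 at 24 h. For AI504432 replicate 1 was below 0 at every time, at -0.64, -1.14 and -2.61 after 1, 4 and 24 h. Replicate 2 was at 0.02, 0.01 and -1.24.

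The neighbours of each locus were taken from the reference table (GRCm38.p6), for their order only, since the array annotation uses an older build. Kcna3, which encodes the voltage-gated potassium channel Kv1.3, is the measured gene next to AI504432, and over the 16 channels it was also the gene most like the brighter AI504432 probe, with a Pearson's r of 0.961 among 9533 genes compared. Its WT levels were 7.12 and 7.35 without LPS, 9.26 and 8.88 at 1 h, 9.32 and 9.14 after 4 h, and 8.68 and 8.65 at 24 h. In the RNA labelled KO they were 7.39 and 7.21, 9.06 and 9.10, 9.48 and 9.31, and 7.44 and 7.65. As with AI504432, the KO values at 24 h lay near those of unstimulated cells and both were below the WT values.

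Kcna3 rose in WT cells by 1.84 at 1 h, 1.99 after 4 h and 1.43 at 24 h (limma, adjusted p at most 1.78e-06), in KO cells by 1.78 at 1 h and in the RNA labelled KO by 2.09 at 4 h (adjusted p at most 1.39e-06). At 24 h its change in KO cells was 0.24 and was not called (adjusted p = 0.265). Its KO/WT ratio at 24 h was -1.23 and -1.0 on the 2 arrays, with a mean of -1.12 (limma, adjusted p = 0.0586). Whether the probes of either gene also pick up RNA of the other was not tested. Of the remaining neighbours, Olfr266, Kcna2 and Kcna10 were called in no comparison. Their mean log2 intensities, between 6.14 and 6.24, were close to the filter of 6, so their course cannot be read. Cd53, a tetraspanin of leukocytes, and Cym did not share the course of Kcna3. They were called at 24 h against unstimulated cells, Cd53 at 1.03 and Cym at -0.87 in WT, and not at 1 h or 4 h. From 4 h to 24 h Cd53 was called in WT (0.65), and Cym in WT (-0.58) and from the RNA labelled KO (-0.60).

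**Figure D4:**
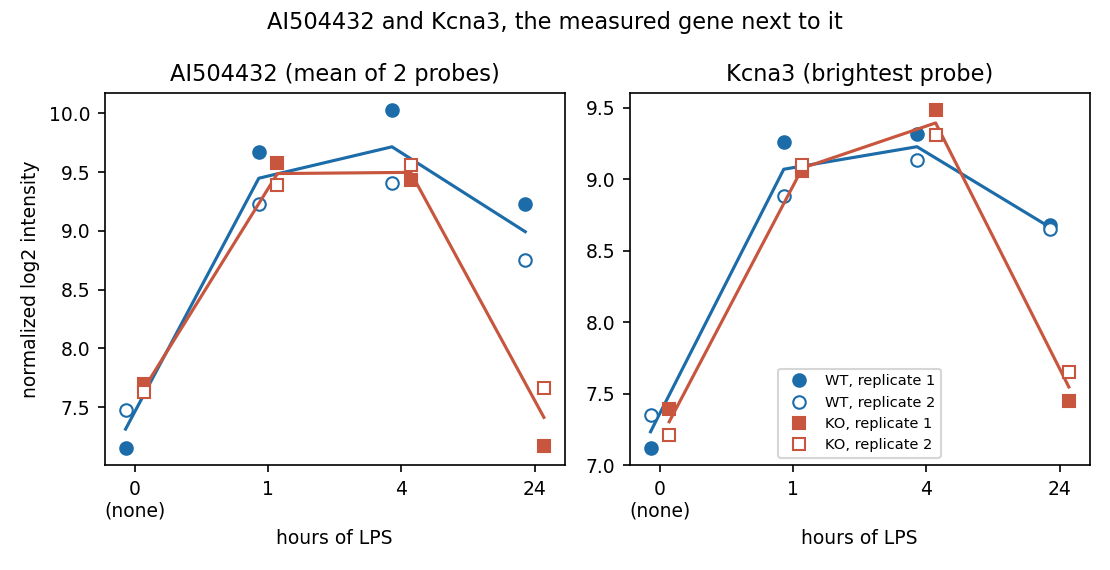
Normalized log2 intensity (vertical axis, a separate scale in each panel) of AI504432, averaged over 2 probes, and of the brightest Kcna3 probe, against hours of LPS (spaced evenly, not to scale). Points are single channels and lines join the means of 2 arrays: both genes are high at 1 h and 4 h in all channels, and at 24 h the KO values are lower than the WT values, at 7.44 and 7.65 for Kcna3.

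Neat1 and Malat1 share their 6 nearest measured neighbours. Slc25a45, a member of the mitochondrial carrier family, fell by 2.84 at 4 h in WT cells and by 2.83 in the RNA labelled KO, and from 4 h to 24 h rose by 1.56 and 1.90 (limma, adjusted p at most 2.28e-07). Frmd8, which encodes a protein that binds iRhom, fell by 1.00 and 1.12 at 4 h. Ltbp3, which encodes a binding protein of latent TGF-β, was lowest at 24 h, at -2.22 in both genotypes. Znrd2 went the other way, with 1.22 in WT at 4 h. None of the 12 neighbours of the 3 loci was called between KO and WT at any LPS time or in their mean.

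Genes whose levels resembled the members over the 16 channels, which share arrays, times and normalization, are given as a description. For the brightest Neat1 probe they included Ehmt2, a histone H3 lysine methyltransferase (r of 0.978), Trim41, Sdhd and Ankrd16 (0.964). For Malat1 they were Lias, which encodes lipoic acid synthetase (0.955), Rfc2, Pradc1, Bnip3 and Pkm (0.933). After Kcna3, AI504432 was most like the kinase gene Stk38l (0.900), F3, Ndel1 and Opa3 (0.881). The change of Stk38l, which was picked for this likeness, was 1.77 at 1 h in WT cells and, at 24 h, 1.30 in WT and 0.14 in KO. Over the 8 KO/WT ratios, the genes most like the members included Kxd1, Emb, Slc22a17, Tarbp2 and Dnpep for Neat1, Shfl, Ttc38, Rn4.5s and Eif2ak4 for Malat1, and Ms4a7, Stk38l, Akr1b3, Ccdc166 and Olr1 for AI504432. Between the members, levels of Neat1 and Malat1 probes had an r between 0.546 and 0.715, and those of AI504432 probes an r between -0.720 and -0.596 with Neat1 and between -0.703 and -0.581 with Malat1.

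Genes of proteins that work with these RNAs were read at their brightest probe. Read in this way, 17.9% of all 20844 named genes tested rose and 24.3% fell in WT cells at 4 h, 18.2% and 25% in the RNA labelled KO, and 19.7% and 16.3% in WT from 4 h to 24 h. Among probes above background 55.7%, 57% and 46.8% were called, in either direction. Of 28 genes of paraspeckle proteins, 15 rose and 1 fell at 4 h in WT cells, with a median change of 0.38, where that of all probes was 0.00. The called members with the largest changes were Taf15, an RNA-binding protein of the FET family (1.85), Rbm7, a part of the nuclear exosome targeting complex (1.04), Sfpq, a core paraspeckle protein (1.01), and Cpsf6, a subunit of cleavage factor I (0.95). In the RNA labelled KO 12 rose and 2 fell. From 4 h to 24 h in WT cells 3 rose and 7 fell, with a median of -0.29.

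Of 31 measured genes of nuclear speckles and splicing, 19 rose and 3 fell at 4 h in WT cells, with a median of 0.55, and 21 rose and 3 fell in the RNA labelled KO. The splicing factor gene Srsf7 changed by 2.00, Srsf3 by 1.45 and Srek1 by 1.64, and Srpk2, whose product phosphorylates such factors, by -2.00. From 4 h to 24 h in WT cells 3 rose and 22 fell, with a median of -0.51. Of 12 genes tied to the 3′ ends of Malat1 and Neat1, 7 rose and 2 fell at 4 h in WT, among them Pop1 (1.83) and Rpp21 (-1.25), both coding for subunits of RNase P, Elac2, which codes for RNase Z (1.18), and Mettl16, whose product binds the Malat1 triple helix (1.18).

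Of 30 other long non-coding RNAs listed 18 were measured, and 7 rose and 3 fell at 4 h in WT cells, a share close to that of all probes above background, and 6 rose and 1 fell in the RNA labelled KO. Morrbid, a regulator of the lifespan of myeloid cells, rose by 3.48 in WT, Dancr by 1.85, Pvt1 by 1.69 and Mir22hg, the host transcript of a microRNA, by 1.32. In none of these 4 lists was a gene called between KO and WT with limma at 1 h, 4 h, 24 h or in the mean of the LPS times.

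Of the 3 genes, Malat1 alone matched the promoter table of RefSeq (GRCm38.p6), and its window is shown because its probes moved together over the channels. It spans chr19:5802623-5802922 on the minus strand, 250 bases before and 50 after the start, and capitals mark matches to TGACG, the core of the cAMP response element, on either strand.

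Malat1: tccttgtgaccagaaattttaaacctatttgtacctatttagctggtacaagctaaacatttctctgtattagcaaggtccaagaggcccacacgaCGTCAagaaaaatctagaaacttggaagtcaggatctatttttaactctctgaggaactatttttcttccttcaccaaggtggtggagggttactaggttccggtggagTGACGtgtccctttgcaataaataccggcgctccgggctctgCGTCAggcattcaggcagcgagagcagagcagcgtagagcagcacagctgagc

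The core occurred 3 times, beginning 154, 45 and 3 bases before the start, and 20.8% of 32817 windows of this length hold at least 1. No match was found to the full element TGACGTCA (in 1.79% of windows), to the AP-1 site TGANTCA (7.81%), to TATAAA (13.6%), to CCAAT (37.4%) or to the κB consensus (8.46%), on both strands. A match is a description of the letters in this window.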

How the data were processed

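RNA of KO and WT peritoneal macrophages was measured on 8 Agilent 2-colour arrays of 62976 spots, on 1 slide. The scanner files that the authors deposited hold the intensity of each spot in both channels, extracted with the Feature Extraction software (version 10.7.3), without normalization between arrays. The matrix that the authors deposited holds their normalized log2 ratios of Cy5 to Cy3 and served as an alternative. Its columns had an r between 0.905 and 0.939 with the scanner software's ratios of the same array and medians between 0.0061 and 0.0108, so its scale and direction fit these ratios, while how it was centred stays unknown.

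Median spot signals were corrected by normexp with an offset of 50, a choice made here, and normalized by loess within and quantile between arrays in limma 3.58.1 (R 4.3.3, statmod 1.5.0), as the study's methods name. The mean signal was not used. Control spots and outlier spots were left out, and spots of a probe were averaged. Probes were named through RefSeq accessions and symbols of the reference table (27575 probes, 20895 genes), and no position of that table is given for a gene, because the builds differ. Between 43.8% and 51.3% of gene spots were well above background in a channel. Probes were tested where their mean log2 intensity was 6 or more (55541 for the ratios, 55502 in the separate-channel fit, which needs complete spots). KO/WT ratios were fitted with 1 coefficient per time point and 4 residual degrees of freedom, and channels with a correlation within spots of 0.114, estimated on 5000 probes and kept when an array was left out. Both fits were also run on simulated data, whose results are not given here. Replicates are samples so labelled. P-values measure the spread between these arrays, or with the replicate block what is left of it, and the small number of arrays limits the precision.

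Replicate numbers are the same at all time points. The difference between replicates in the KO/WT ratio correlated across probes between time points, with r from 0.444 to 0.642 over 6 pairs of time points, and the numbers were therefore taken to pair the arrays. The growth protocol in the labels names 4 h of stimulation for every sample, and samples were assigned by their titles.

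The members, gene lists and tests were chosen with earlier results of these data known. Genes named are all members, Furin and Lyz2, the 5 genes most like each member's brightest probe, over the 16 channels and over the 8 ratios, among those whose mean log2 intensity was 8 or more, the 3 nearest measured genes on each side, and up to 4 called genes of a list with the largest change. Some genes that this rule names are not reported here. Alternatives were other background corrections, normalizations and filters, 1 probe per gene, the replicate block, leaving out each array, the authors' matrix, the methods' t-test and independent channels.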

Additional observations from a re-analysis of the deposited data

Results flagged for a closer look

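The log2 KO/WT ratio of AI504432 was above 0 on both unstimulated arrays (0.55 and 0.15) and below 0 on both arrays of 24 h of LPS (-2.06 and -1.10). It was marked for a closer look because every array of one time point went one way and every array of the other the opposite way, and the ratio at 24 h minus that of unstimulated cells was -1.93. The difference itself was not tested, and it may be what AI504432 was chosen for.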

How the results depend on the processing

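No probe called in either setting changed its direction under any alternative run. Between KO and WT, 0 of 12 probes were called under the alternatives run for each time and for the mean of the LPS times (the methods' t-test was not run for the mean, and with 1 probe per gene 0 of 3 were called), except the replicate block, under which 2 were called at 24 h and 8 for the mean. Both at 24 h and 2 of the 8 are AI504432 probes, from which nothing is read, and the other 6 are Neat1. The block moved no other count of called probes by over 1.5 times. Nothing is read from the calls against unstimulated arrays that are counted below. Leaving out single arrays, the number called in KO cells was between 2 and 8 at 1 h (6 with all arrays), between 4 and 10 at 24 h (10 with all) and between 5 and 10 from 1 h to 4 h in the RNA labelled KO (8 with all), and in WT cells between 6 and 9 at 1 h (10 with all). For KO cells at 24 h it was 4 with loess within arrays only and 5 with the software's processed signals. Loess within arrays only moved the median of all probes from 1 h to 4 h to -0.15 in WT and in the RNA labelled KO, beside which Neat1 had medians of -1.70 and -1.69. Without the 4 h arrays, an alternative chosen after seeing the data because of their Furin ratios, 0 of 12 probes were called between KO and WT, and 9 of 12 with LPS in WT at 1 h, 8 in WT at 24 h, 5 in KO at 1 h and 9 in KO at 24 h. With 2 arrays per time point, a lone array left at a time point is assumed to vary like the others. All 12 probes were well above background in all 16 channels.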

Other observations

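Other probes on chromosome 19 are named by position in the older build of the array (mm9), and whether they belong to Neat1 or Malat1 was not determined. The 3 probes for chr19:5801802-5802597 had mean log2 intensities between 14.97 and 16.63, against 8.86 to 9.22 for the 4 named Malat1 probes. Their saturation was not examined. In WT cells they changed by -0.86 to -0.58 at 4 h and by -1.22 to -0.76 at 24 h on the log2 scale. The named Malat1 probes had a median change of 0.15 at 24 h in WT cells. Over the 16 channels the levels of these 3 probes had an r between 0.634 and 0.720 with Neat1, between 0.169 and 0.292 with Malat1 and between -0.094 and 0.011 with AI504432. The 3 probes for chr19:5834117-5835940 changed by 1.14 to 1.42 at 1 h and by -0.16 to -0.12 at 24 h in WT cells. They had an r between 0.657 and 0.694 with AI504432, between -0.268 and -0.177 with Neat1 and between -0.287 and -0.224 with Malat1. The 3 probes for chr19:5841103-5845579, which are dimmer, changed by -0.16 to 0.27 at 4 h in WT cells and had an r between -0.615 and 0.455 with Neat1 and between -0.569 and 0.445 with Malat1.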
